A study of Homo sapiens with 18 samples.

Results

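The sensors of foreign or misplaced nucleic acid and the proteins that pass their signal on were followed in HCT116, a line of human colorectal cancer cells, through 10 genes chosen by name: CGAS, STING1, MAVS, IRF3, TBK1, IKBKE, TLR3, RIGI, IFIH1 and DHX58. All 10 were found among the 61552 genes of the count table, and 9 of them were among the 19038 genes with enough counts to test. The cells carried knock-ins of IκBα, a protein that keeps NF-κB out of the nucleus until a signal such as TNF triggers its breakdown. N108 cells carried a mutant named for residue 108, M3 cells a mutant with alanine in place of residues 84, 85 and 86, and WT cells the wild-type protein. Each line was sequenced with human TNFα (0.1 µg/mL for 40 min) and untreated, with 3 replicates in each of 6 groups and 18 libraries in all. The knock-in itself was thus shared by every group, WT included. There was 1 line per genotype, the labels do not say whether a line was a single clone, and nothing says that replicates came from separate cultures. The p-values thus reflect variation among these libraries that may be technical only, and genotype cannot be told apart from other differences between the lines.

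Cells recognise nucleic acid in the wrong place with dedicated receptors. RIG-I (encoded by RIGI) and MDA5 (IFIH1) bind viral RNA in the cytoplasm, with LGP2 (DHX58) as their regulator, and signal through MAVS on the mitochondrion. TLR3 binds double-stranded RNA in endosomes, while cGAS (CGAS) binds cytosolic DNA and makes a cyclic dinucleotide that activates STING (STING1) on the endoplasmic reticulum. These routes meet at the kinases TBK1 and IKKε (IKBKE), which phosphorylate the transcription factor IRF3. IRF3 then switches on interferon genes, and interferon in turn raises many of the sensors. The same receptors also activate NF-κB, the factor that IκBα restrains.

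Promoter windows from RefSeq (GRCh38.p14, 250 bases before to 50 after the annotated start) were at hand for 6 of the 10 genes, and those of the RNA sensors IFIH1, RIGI and TLR3 are shown because they held letter patterns of the kinds read by IRF or NF-κB factors. They lie at chr2:162318635-162318934 on the minus strand for IFIH1, chr9:32526147-32526446 on the minus strand for RIGI and chr4:186068906-186069205 on the plus strand for TLR3. Each is written 5′ to 3′ along its gene, with ISRE-type and NF-κB-type matches in capitals.
IFIH1: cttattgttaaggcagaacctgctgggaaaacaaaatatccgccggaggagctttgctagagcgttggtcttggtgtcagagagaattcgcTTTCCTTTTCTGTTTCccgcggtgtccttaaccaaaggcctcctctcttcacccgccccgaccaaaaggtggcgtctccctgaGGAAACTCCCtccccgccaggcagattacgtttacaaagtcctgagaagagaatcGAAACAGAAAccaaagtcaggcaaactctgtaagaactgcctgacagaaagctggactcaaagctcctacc
RIGI: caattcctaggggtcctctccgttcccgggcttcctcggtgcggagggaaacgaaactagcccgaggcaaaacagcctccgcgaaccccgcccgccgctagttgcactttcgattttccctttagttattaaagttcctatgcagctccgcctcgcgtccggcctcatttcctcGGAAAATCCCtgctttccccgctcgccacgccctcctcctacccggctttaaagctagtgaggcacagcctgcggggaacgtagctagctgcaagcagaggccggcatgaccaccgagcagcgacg
TLR3: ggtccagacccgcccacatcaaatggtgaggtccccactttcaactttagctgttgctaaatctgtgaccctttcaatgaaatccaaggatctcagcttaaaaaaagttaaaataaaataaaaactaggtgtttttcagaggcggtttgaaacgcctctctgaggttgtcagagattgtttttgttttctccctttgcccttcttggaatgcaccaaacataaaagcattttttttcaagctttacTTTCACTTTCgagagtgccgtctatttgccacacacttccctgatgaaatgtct

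The ISRE-type search was for a pair of GAAA words with any 2 bases between them, on either strand, and 3.57% of 35116 promoter windows held at least 1 match. IFIH1 held 3, starting 159, 153 and 21 bases upstream of the annotated start, the first pair overlapping. TLR3 held 1, starting 4 bases upstream. The NF-κB-type search was for GGGA, then any base, then TTTCC, on either strand, found in 0.558% of windows, and it matched IFIH1 and RIGI once each, in both at 76 bases upstream. The GAS-type palindrome TTCNNNGAA, a form read by STAT factors and present in 7.66% of windows, occurred at 2 places in the TLR3 window and is left in lower case there. The windows of MAVS, TBK1 and IKBKE held no match to these 3 patterns. A match describes letters in a window and not binding in these cells.

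Library totals ranged from 49021907 to 76947190 counts. NFKBIA, the gene of IκBα, had 275.7 ± 19 CPM (a gene's counts scaled to the library total after TMM normalization; SD, n = 3) in N108 cells with TNF, 965.6 ± 21 in M3 cells with TNF and 757.9 ± 20 in WT cells with TNF. Untreated, it had 30.2 ± 1.8 CPM in N108 cells, 77.9 ± 1.2 in M3 cells and 91.5 ± 4.6 in WT cells. Reads are counted per gene whichever residue they encode, so these levels do not check the edits. The NFKBIA levels themselves differed between lines in edgeR's quasi-likelihood test. Untreated, the log2 fold change against WT was -1.6 in N108 (adjusted p = 2.1e-19) and -0.23 in M3 (adjusted p = 0.00036). With TNF it was -1.46 in N108 (adjusted p = 5.1e-19) and 0.35 in M3 (adjusted p = 9.1e-07). The cause of these differences was not tested. Epithelial markers summed to between 4782.3 and 5276.4 CPM in N108 libraries, between 3707.9 and 4374.5 CPM in M3 and between 6225.1 and 6866.9 CPM in WT, with CDH17 at no more than 0.127 CPM in any library. Leukocyte markers summed to between 0.163 and 0.736 CPM in the mutant lines and between 2.68 and 4.14 CPM in WT, nearly all of it LYZ, while PTPRC was at 0 in 17 of 18 libraries. Fibroblast markers summed to between 26.5 and 36.4 CPM in N108 libraries, between 28.4 and 34.3 CPM in M3 and between 15.4 and 22.9 CPM in WT. Among them DCN and LUM were at 0 in all 18 libraries, and COL1A1 lay between 15.3 and 36.4 CPM. In 3 libraries (N108 TNF replicates 2 and 3 and M3 untreated replicate 3) the deviation of genes from their group mean followed GC content, with Spearman coefficients of 0.45, -0.52 and 0.46. Results that rest on those libraries are given below without them where the call differs. With bulk RNA, fewer cells expressing a gene and less RNA per cell cannot be told apart.

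Set in order of level per length, MAVS, IRF3, STING1 and TBK1 stood far above the sensors, while the kinase IKBKE lay among them. In untreated WT cells MAVS averaged 27.6 CPM per kb of merged exons, IRF3 23.4, STING1 14.8 and TBK1 12. The helicase sensor IFIH1 followed at 3.41 CPM per kb, then IKBKE at 2.02, TLR3 at 1.03, RIGI at 0.447 and DHX58 at 0.375. RIGI and DHX58 overlapped between libraries in WT cells, untreated and with TNF. All other neighbours in the WT order were apart in every library. In untreated mutant cells TBK1 stood above STING1, at 11 against 8.32 CPM per kb in N108 and 11 against 9.10 in M3. M3 cells also had IKBKE above IFIH1, at 2.19 against 1.78 CPM per kb untreated, and with TNF these genes overlapped at 2.23 and 2.17 CPM per kb.

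**Figure D1:**
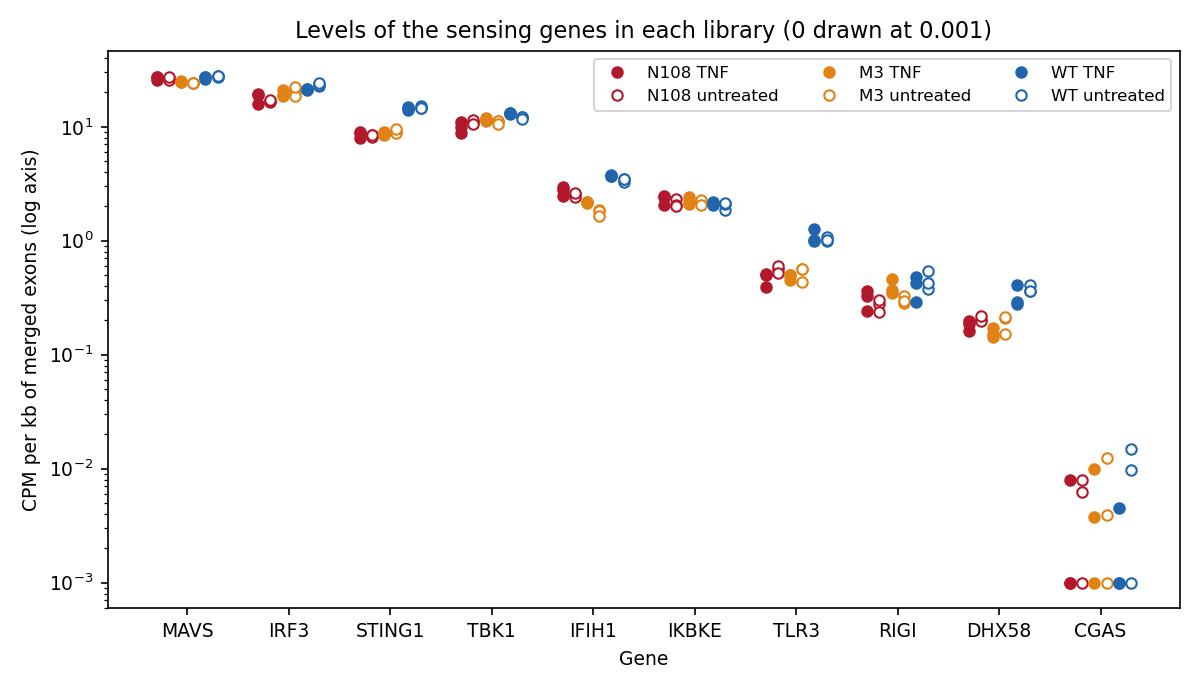
Level of each gene in each library as CPM per kb of merged exons on a log axis, with filled points for TNF and open points for untreated cells. MAVS, IRF3, STING1 and TBK1 lie near or above 8 CPM per kb, the RNA sensors lower, and CGAS lies below 0.02 CPM per kb with 8 of its 18 libraries at 0.

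CGAS, the DNA sensor, was close to undetected in HCT116 cells of every genotype. It lies at chr6:73413515-73452276 on the minus strand (GENCODE 29 on GRCh38, as for every gene position here), with 4155 bases of merged exons. Its 20 counts over all 18 libraries were 0, 0 and 2 in N108 cells with TNF, 1, 2 and 0 in M3 cells with TNF, and 0, 1 and 0 in WT cells with TNF. Untreated, the counts were 0, 2 and 2 in N108 cells, 3, 1 and 0 in M3 cells, and 0, 4 and 2 in WT cells. No library held more than 4 counts, and 8 held none. A count of 3 corresponds to 0.039 to 0.0612 CPM in these libraries, which is about the highest level reached. CGAS did not pass the filter on low counts, so no difference between lines was detectable at this depth.

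STING1, the adaptor downstream of cGAS (chr5:139475534-139482935, minus strand), was lower in both mutant lines than in WT. Untreated, it had 32.6, 31.2 and 32.3 CPM in N108 cells and 34.9, 33.6 and 36.5 CPM in M3 cells, against 58.3, 55.8 and 56.8 CPM in WT cells. With TNF the libraries held 33.6, 34.6 and 30.9 CPM in N108, 34.6, 32.6 and 33.7 CPM in M3, and 53.6, 56.0 and 57.3 CPM in WT. Every mutant library lay below every WT library, with a gap far wider than the spread within any group. The log2 fold change of N108 against WT was -0.83 (SE 0.05, adjusted p = 1.4e-13 in edgeR's quasi-likelihood test with Benjamini-Hochberg adjustment over the 19038 genes) untreated and -0.75 (SE 0.051, adjusted p = 1.4e-12) with TNF. For M3 against WT it was -0.70 (SE 0.05, adjusted p = 3e-12) untreated and -0.73 (SE 0.051, adjusted p = 1.7e-12) with TNF. Both mutants were set against the same WT libraries, here and throughout. The 2 mutants differed little: -0.13 (95% interval -0.23 to -0.02, adjusted p = 0.0535) for untreated N108 against M3, and -0.03 (-0.13 to 0.08) with TNF. The untreated difference passed the threshold with DESeq2 (adjusted p = 0.044), under a filter of 1 CPM (0.037), with a correction for each gene's GC content (0.022) and without M3 untreated replicate 2 (-0.16, adjusted p = 0.031). The difference with TNF passed with the GC correction (-0.11, adjusted p = 0.03).

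MAVS, the mitochondrial adaptor of the RNA helicases (chr20:3846799-3876123, plus strand), was the most abundant of the genes per length and differed little between lines. It had 312.6 ± 7.7 CPM in untreated N108 cells, 283.1 ± 0.4 in untreated M3 cells and 324.5 ± 3.9 in untreated WT cells (SD, n = 3 each). M3 fell below WT by 0.20 on the log2 scale (SE 0.039, adjusted p = 0.0001), a difference of -12.8%. N108 against WT was -0.05 (95% interval -0.13 to 0.03, adjusted p = 0.28). With TNF the means were 314.3 ± 9.3 CPM in N108, 293.9 ± 4.4 in M3 and 317.4 ± 7.9 in WT, and M3 against WT was -0.11 (adjusted p = 0.017). That call was lost when M3 TNF replicate 2 or 3 or WT TNF replicate 1 or 2 was left out, with the highest adjusted p at 0.067, and with no filter on low counts (adjusted p = 0.096).

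Among the RNA sensors, TLR3, IFIH1 and DHX58 were lower in both mutant lines, with TNF and without it. The endosomal receptor TLR3 (chr4:186069152-186088069, plus strand) had 3.79, 4.06 and 3.53 CPM in untreated N108 cells and 3.77, 3.83 and 2.89 CPM in untreated M3 cells, against 7.21, 6.74 and 6.86 CPM in untreated WT cells. With TNF it had 3.39, 2.64 and 3.4 CPM in N108, 3.37, 3.36 and 3.06 CPM in M3, and 6.7, 8.55 and 6.82 CPM in WT. The highest mutant library, at 4.06 CPM, stayed below the lowest WT library, at 6.7 CPM. Untreated N108 cells held 0.548 times the WT level (log2 fold change -0.87, SE 0.11, adjusted p = 2e-07) and M3 cells 0.505 times (-0.99, SE 0.11, adjusted p = 1.8e-08). With TNF the ratios were 0.429 for N108 (-1.22, SE 0.11, adjusted p = 9.6e-10) and 0.443 for M3 (-1.17, SE 0.11, adjusted p = 1.1e-09). Its promoter window, printed above, carries the ISRE-type letters next to the annotated start.

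IFIH1, the gene of the MDA5 helicase that binds long double-stranded RNA (chr2:162267079-162318703, minus strand), separated all 3 lines. Untreated, it had 13.1, 12.4 and 13.3 CPM in N108 cells, 9.45, 9.29 and 8.46 CPM in M3 cells, and 16.8, 17.8 and 17.7 CPM in WT cells. With TNF it had 14.2, 12.6 and 15 CPM in N108, 11, 11.2 and 11.1 CPM in M3, and 18.8, 18.8 and 19.4 CPM in WT. M3 was lowest, N108 in between and WT highest, with no overlap between lines at either treatment. N108 fell below WT by 0.43 on the log2 scale (SE 0.062, adjusted p = 2.4e-06) untreated and by 0.45 (SE 0.063, adjusted p = 1.4e-06) with TNF. M3 fell below WT by 0.94 (SE 0.065, adjusted p = 1.2e-12) untreated and by 0.78 (SE 0.064, adjusted p = 5e-11) with TNF. N108 stood above M3 by 0.51 (SE 0.066, adjusted p = 6.9e-07) untreated and 0.33 (SE 0.065, adjusted p = 0.0002) with TNF.

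DHX58, whose product LGP2 modulates the other helicases (chr17:42101404-42112733, minus strand), was rare, with 32 counts in its lowest library. It had 0.772, 0.755 and 0.834 CPM in untreated N108 cells and 0.813, 0.585 and 0.824 CPM in untreated M3 cells, against 1.38, 1.57 and 1.38 CPM in untreated WT cells. With TNF the libraries held 0.619, 0.752 and 0.716 CPM in N108, 0.548, 0.656 and 0.579 CPM in M3, and 1.06, 1.12 and 1.57 CPM in WT. All mutant libraries lay below all WT libraries. N108 against WT was -0.87 (SE 0.17, adjusted p = 0.00011) untreated and -0.85 (SE 0.18, adjusted p = 0.00036) with TNF. M3 against WT was -0.96 (SE 0.17, adjusted p = 3e-05) untreated and -1.08 (SE 0.19, adjusted p = 2.1e-05) with TNF.

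RIGI, the gene of the helicase RIG-I (chr9:32455705-32526324, minus strand), was lower in both mutants untreated and less clearly so with TNF. Untreated, it had 1.22, 1.3 and 1.03 CPM in N108 cells, 1.23, 1.41 and 1.28 CPM in M3 cells, and 2.36, 1.64 and 1.84 CPM in WT cells. The mutant libraries did not overlap with WT there, though WT replicate 1 stood well above its group. N108 fell below WT by 0.72 on the log2 scale (SE 0.18, adjusted p = 0.0017) and M3 by 0.58 (SE 0.18, adjusted p = 0.0073). Without WT untreated replicate 1 the M3 value was -0.41 (adjusted p = 0.092). With TNF RIGI had 1.06, 1.41 and 1.58 CPM in N108, 2.0, 1.52 and 1.61 CPM in M3, and 2.07, 1.85 and 1.25 CPM in WT, and all 3 groups overlapped. The fold changes with TNF were -0.35 (95% interval -0.73 to 0.04, adjusted p = 0.13) for N108 against WT and 0.01 (-0.36 to 0.38, adjusted p = 0.97) for M3 against WT. These values rested on WT TNF replicate 3: without it they were -0.54 (adjusted p = 0.021) for N108 and -0.18 for M3. With the GC-trend libraries left out, which leaves 1 N108 TNF library assumed to vary like the others, N108 against WT with TNF was -0.70 (adjusted p = 0.037).

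**Figure D2:**
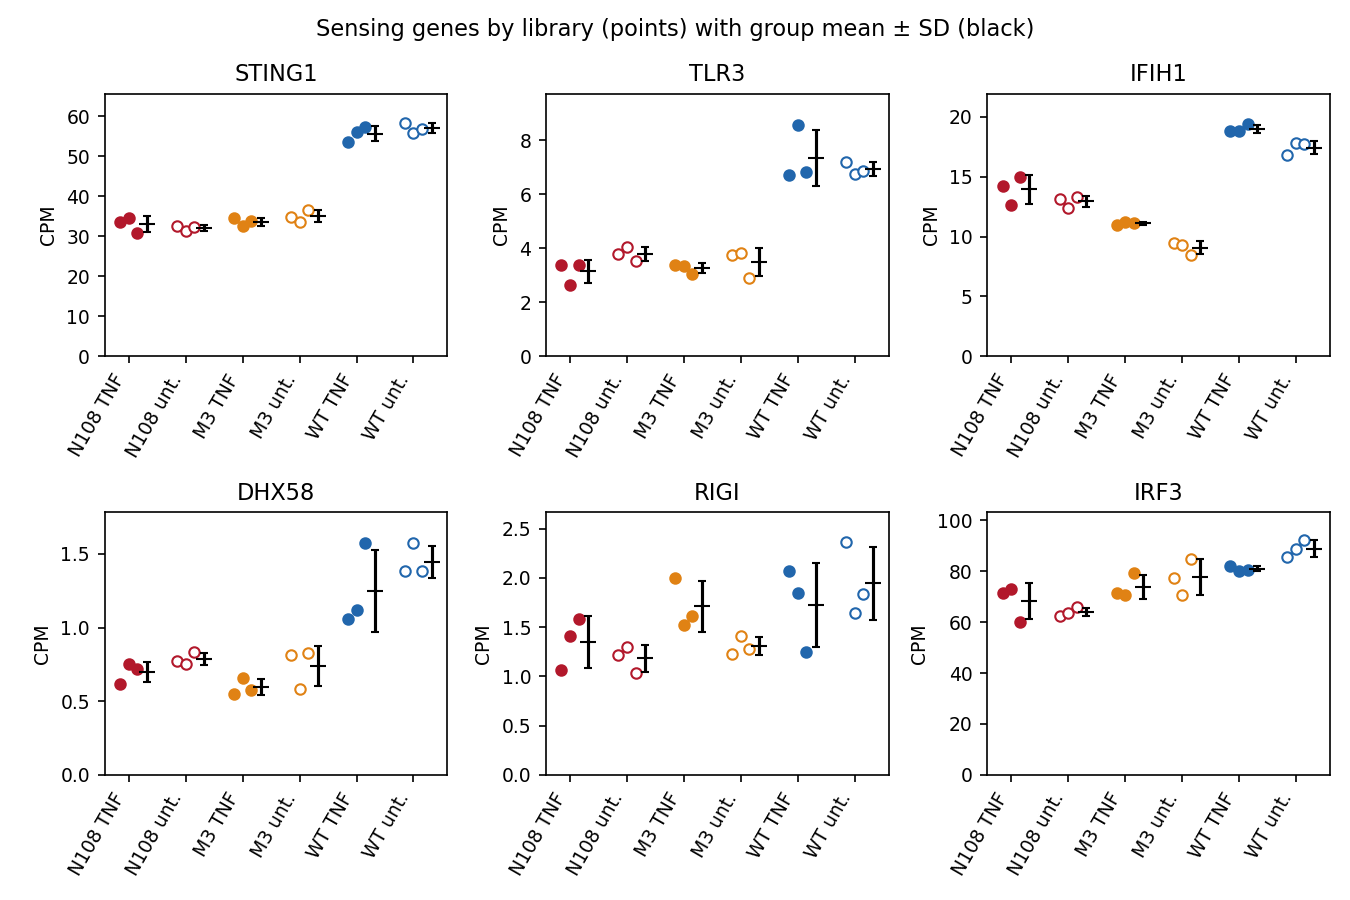
CPM of 6 of the genes in each library (points) with the mean ± SD of each group of 3 (black), N108 and M3 left of WT. STING1, TLR3 and DHX58 show mutant libraries below all WT libraries, IFIH1 shows 3 separate levels with M3 lowest, and RIGI with TNF overlaps between lines.

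The kinases differed from each other. TBK1, the main kinase of IRF3 (chr12:64451880-64502108, plus strand), had 47.2, 42.1 and 51.9 CPM in N108 cells with TNF and 54.8, 56.4 and 53.4 CPM in M3 cells with TNF, against 61.8, 62.8 and 63.5 CPM in WT cells with TNF. N108 was lowest, M3 next and WT highest, without overlap. The log2 fold changes with TNF were -0.41 (SE 0.057, adjusted p = 1.2e-06) for N108 against WT and -0.19 (SE 0.057, adjusted p = 0.0057) for M3 against WT. Untreated, TBK1 had 52.1, 55.1 and 50.1 CPM in N108, 53.5, 53.6 and 50.0 CPM in M3, and 57.9, 57.8 and 55.6 CPM in WT. Those groups did not overlap with WT either, but the differences of -0.12 in N108 (adjusted p = 0.086) and -0.12 in M3 (adjusted p = 0.068) missed the threshold. A correction for GC content moved them to -0.18 (adjusted p = 0.00014) and -0.17 (adjusted p = 0.00026), both past it. Fits on the groups compared also put both past it (adjusted p = 0.023 and 0.04), and with the GC-trend libraries left out the N108 difference passed (-0.12, adjusted p = 0.016). Of the merged exon bases of TBK1, 14.7% are shared with a gene on the opposite strand, ENSG00000277895, that held 89 counts in all.

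IKBKE, the related kinase IKKε (chr1:206470476-206496889, plus strand), kept between 7.05 and 9.27 CPM in every library. No comparison passed the threshold for it, except that untreated M3 against WT did with the replicate block and GC correction together (0.18, adjusted p = 0.041). Untreated N108 against WT was 0.08 (95% interval -0.09 to 0.25) and M3 against WT 0.12 (-0.05 to 0.29). With TNF the values were 0.12 (-0.05 to 0.29) and 0.08 (-0.10 to 0.25).

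IRF3, the transcription factor at the end of the route (chr19:49659569-49665875, minus strand), was lower in N108 than in WT at both treatments. Untreated, it had 62.6, 63.8 and 65.8 CPM in N108 cells, 77.3, 70.7 and 85.0 CPM in M3 cells, and 85.7, 88.7 and 92.3 CPM in WT cells. With TNF the libraries held 71.4, 73.1 and 60.1 CPM in N108, 71.5, 70.6 and 79.4 CPM in M3, and 82.1, 80.3 and 80.6 CPM in WT. N108 libraries were tight untreated and spread with TNF. All M3 libraries lay below all WT libraries at the same treatment, the nearest at 85.0 CPM untreated and 79.4 CPM with TNF. N108 fell below WT by 0.47 on the log2 scale (SE 0.066, adjusted p = 1.8e-06) untreated and by 0.25 (SE 0.066, adjusted p = 0.003) with TNF. M3 against WT was -0.19 (SE 0.065, adjusted p = 0.015) untreated, lost without M3 untreated replicate 2 (-0.13, adjusted p = 0.13) or WT untreated replicate 3 (-0.17, adjusted p = 0.064). With the GC-trend libraries left out, untreated M3 against WT was -0.26 (adjusted p = 4.7e-05). With TNF it was -0.13 (adjusted p = 0.089), which passed the threshold without M3 TNF replicate 3 (-0.18, adjusted p = 0.033) and with the GC-trend libraries left out (-0.13, adjusted p = 0.013). IRF3 shares 19.3% of its exon bases with BCL2L12 on the opposite strand, and whether the counting used strand is unknown here, so part of its reads may be shared. BCL2L12 itself was -0.06 (adjusted p = 0.49) in untreated N108 against WT and -0.29 (adjusted p = 0.00029) in untreated M3 against WT.

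Counted together, 6 of the 9 tested genes fell in untreated N108 against WT and 0 rose, in a comparison where 42.4% of all genes tested were called in either direction and 21.6% of all genes tested were called lower. In untreated M3 against WT 7 of the 9 fell and 0 rose, beside 52.9% of all genes tested called and 26.8% called lower. With TNF 6 of 9 fell in N108 against WT, beside 46.7% of all genes called and 23.6% called lower, and 6 of 9 fell in M3 against WT, beside 54.7% called and 27.8% called lower. The median log2 fold change of the 9 genes was -0.47 in untreated N108, beside 0.01 over all genes, and -0.58 in untreated M3, beside 0.00. With TNF the medians were -0.41 in N108 and -0.19 in M3, beside 0.02 over all genes in both. The epithelial and leukocyte marker sums, the latter nearly all LYZ in WT, were also lower in both mutant lines, as given above. The fibroblast sum, nearly all COL1A1, was higher. The part of these marker differences in the values of the 9 genes was not tested.

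**Figure D3:**
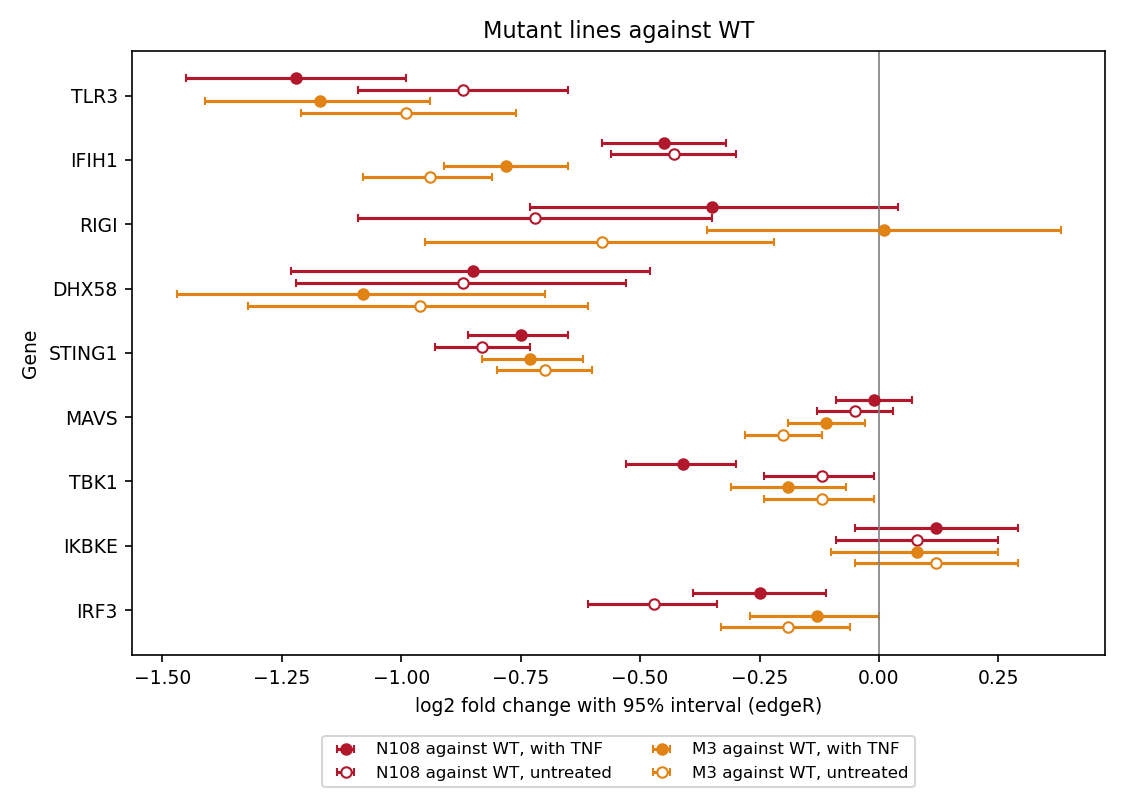
Log2 fold change of each tested gene in N108 and M3 against WT, with TNF (filled) and untreated (open), with 95% intervals from edgeR. TLR3, DHX58 and STING1 lie between -0.70 and -1.22 in each of the 4 comparisons, MAVS between -0.20 and -0.01, and the intervals of IKBKE cover 0.

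The mutants were also set against each other. Untreated, 3 of 9 genes differed between N108 and M3, beside 31.5% of all genes: IFIH1 and MAVS were higher in N108 and IRF3 was lower. MAVS stood higher in N108 by 0.14 (SE 0.039, adjusted p = 0.0054), and IRF3 fell below M3 by 0.28 (SE 0.066, adjusted p = 0.0019). With TNF 3 of 9 differed, beside 37.3% of all genes: IFIH1 and MAVS were higher in N108 and TBK1 was lower. TBK1 fell below M3 by 0.22 (SE 0.057, adjusted p = 0.0032). MAVS, at 0.10 (adjusted p = 0.0496), lost its call in 5 of 6 omissions of a single library: N108 TNF replicate 1 or 3 and each M3 TNF library. It was also lost with the GC correction (0.07, adjusted p = 0.12). The call was lost as well with the GC-trend libraries left out (0.11), which leaves 1 N108 TNF library. IRF3 in N108 against M3 with TNF, at -0.12 (adjusted p = 0.18), was -0.23 (adjusted p = 0.00025) with the GC correction. For TLR3, DHX58, RIGI and IKBKE no difference between the mutants passed the threshold, nor for STING1 apart from the settings given with that gene. With the GC-trend libraries left out, which leaves 1 N108 TNF library, RIGI with TNF was -0.72 in N108 against M3. With them it was -0.36 (95% interval -0.73 to 0.02).

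TNF for 40 min moved the sensing genes little in any line. In N108 0 of 9 passed edgeR's test, beside 1.2% of all genes, and 2 had an unadjusted p under 0.05. In WT 0 of 9 passed, beside 5.18% of all genes, and again 2 had an unadjusted p under 0.05. DESeq2 called 0 of 9 in both. In WT, TBK1 passed with the GC-trend libraries left out (0.14, adjusted p = 0.028) and IRF3 in fits on the groups compared (-0.15, adjusted p = 0.025). Without N108 TNF replicate 3, TBK1 in N108 was -0.23 and passed (adjusted p = 0.014). In M3 1 of 9 passed, beside 1.38% of all genes: IFIH1 rose by 0.29 on the log2 scale (SE 0.067, adjusted p = 0.018), with 11, 11.2 and 11.1 CPM with TNF against 9.45, 9.29 and 8.46 CPM untreated. The IFIH1 groups were apart, but the call was lost without any one of the 3 M3 TNF libraries or M3 untreated replicate 3, with adjusted p between 0.07 and 0.15, and with the GC-trend libraries left out (0.24, adjusted p = 0.0511). In the other lines IFIH1 was 0.11 (95% interval -0.02 to 0.24) in N108 and 0.13 (0.00 to 0.25) in WT, and the difference between its M3 and WT responses was 0.16 (adjusted p = 0.63). RIGI in M3 was 0.40 (0.02 to 0.78, adjusted p = 0.5), and TLR3 in N108 was -0.27 (-0.51 to -0.03, adjusted p = 0.29).

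A difference in the response to TNF was tested for each gene. TBK1 responded differently in N108 and WT by the interaction term, at -0.29 (SE 0.081, adjusted p = 0.0493), the 1 call among 9 genes in a test that called 2.62% of all genes. Its change with TNF was -0.16 (95% interval -0.27 to -0.04, adjusted p = 0.21) in N108 and 0.13 (0.02 to 0.25, adjusted p = 0.19) in WT, neither past the threshold alone. The interaction lost its call in 10 of 12 omissions of a single library, the exceptions being N108 TNF replicate 3 and N108 untreated replicate 3, and a GC correction gave -0.14 (adjusted p = 0.22). For M3 against WT 0 of 9 interactions passed, beside 0.315% of all genes, with 1 unadjusted p under 0.05. For N108 against M3 0 of 9 passed, beside 0.0788% of all genes, with 1 unadjusted p under 0.05. DESeq2 called 0 of 9 in both of these. Leaving out N108 TNF replicate 3 added the interaction of IRF3 in N108 against WT (0.31, adjusted p = 0.017) and that of TBK1 in N108 against M3 (-0.30, adjusted p = 0.029). With the GC-trend libraries left out, which leaves 1 N108 TNF library, the IRF3 interaction in N108 against WT was 0.27.

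**Figure D4:**
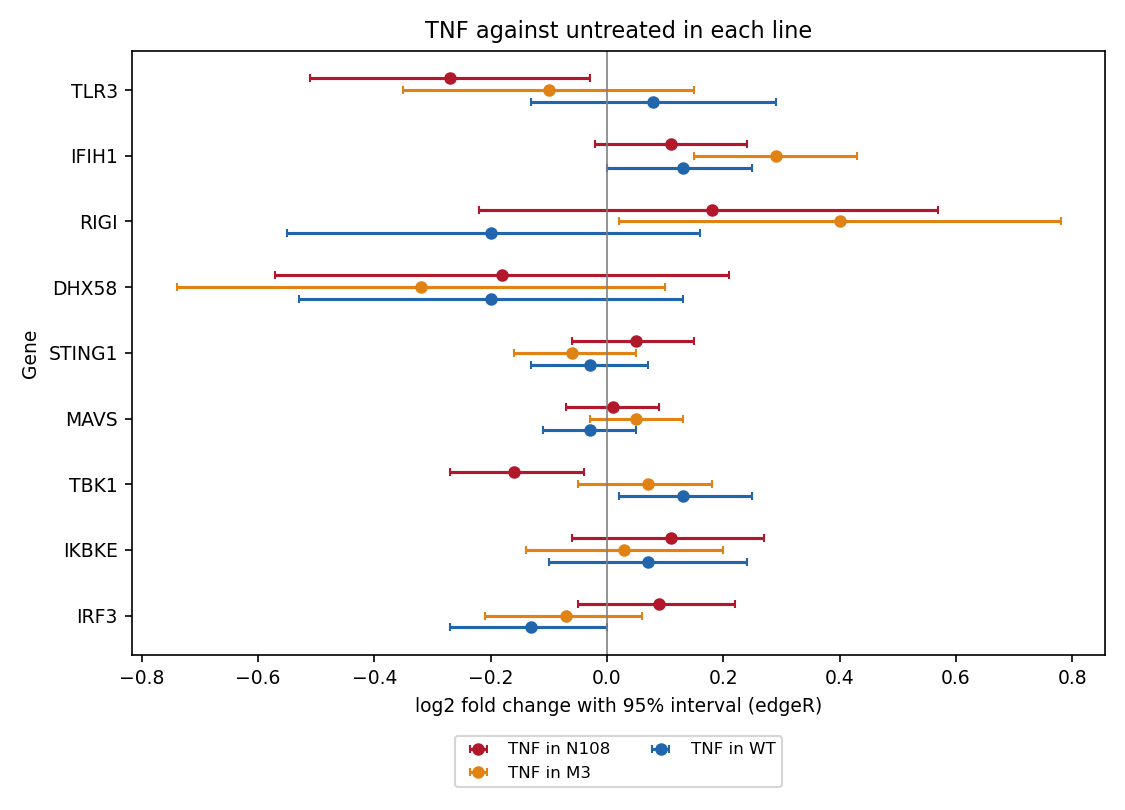
Log2 fold change with TNF against untreated cells in N108, M3 and WT for each tested gene, with 95% intervals from edgeR. IFIH1 in M3, at 0.29, is the 1 value past the threshold, and TBK1 lies at -0.16 in N108 and 0.13 in WT.

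In a list of genes that IRF3 and interferon switch on, most that could be tested were lower in the mutants. Of 12 listed, 6 had enough counts to test. All 6 fell in untreated N108 against WT (median -1.24), and 5 fell in untreated M3 against WT (median -1.10), beside 21.6% and 26.8% of all genes tested called lower. With TNF 5 fell in N108 (median -1.22) and 5 in M3 (median -1.27), beside 23.6% and 27.8%, and 0 rose in any of the 4. IFIT1, which binds foreign RNA ends, had 4.87 ± 0.3 CPM in untreated N108 cells and 4.35 ± 0.22 in untreated M3 cells, against 17.3 ± 1.2 in untreated WT cells, or -1.83 (adjusted p = 1.2e-16) and -1.99 (adjusted p = 1.8e-17). ISG15, a ubiquitin-like modifier, was -1.25 in N108 (adjusted p = 2.5e-12) and -1.21 in M3 (adjusted p = 2.7e-12), and IFIT3, a partner of IFIT1, was -1.24 (adjusted p = 1.9e-11) and -0.99 (adjusted p = 7.3e-10). The exception in untreated M3 was IFIT2, at -0.12 (adjusted p = 0.32). The interferon genes themselves were near 0: IFNB1 had 1 count over all 18 libraries, IFNL1 23, IFNL2 16 and IFNL3 23. With TNF 0 of the 6 passed edgeR's test or DESeq2's in any line, with 2 unadjusted p under 0.05 in N108, 0 in M3 and 1 in WT. Without N108 TNF replicate 3, 1 passed in N108.

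Among 25 further sensors, 19 were tested. In untreated N108 against WT 5 fell and 2 rose (median 0.02), and in untreated M3 against WT 9 fell and 3 rose (median -0.10), beside 42.4% and 52.9% of all genes tested called in either direction. With TNF 8 fell and 1 rose in N108, and 9 fell and 2 rose in M3, beside 46.7% and 54.7%. Untreated, 21.6% of all genes tested were called lower in N108 and 26.8% in M3, and with TNF 23.6% and 27.8%. Whether the list differs from all genes was not tested. OAS1, which makes 2-5A on binding double-stranded RNA, had 1.66 ± 0.42 CPM in untreated N108 cells and 0.959 ± 0.24 in untreated M3 cells, against 14.6 ± 0.19 in untreated WT cells (-3.12, adjusted p = 1.7e-14, and -3.93, adjusted p = 1.1e-15). Its relative OAS3 had 104.0 ± 3.9 and 78.1 ± 4.4 CPM in the same groups, against 174.4 ± 4.4 in WT (-0.75 and -1.16, adjusted p = 1.2e-12 and 5.5e-17). IFI16, a DNA sensor, was -0.71 in N108 (adjusted p = 0.00021) and -0.54 in M3 (adjusted p = 0.0025). The RNA-binding helicase ZNFX1 was -0.40 in untreated M3 (adjusted p = 3.3e-07), and it had 90.6 ± 2.3 CPM in untreated N108 against 105.0 ± 2.3 in WT. The RNA-activated kinase EIF2AK2 was -0.65 in N108 with TNF (adjusted p = 1.4e-05), and it had 100.1 ± 4.1 CPM in M3 with TNF against 154.6 ± 5.3 in WT. OAS2, AIM2, ZBP1, PYHIN1, TLR8 and TLR9 had too few counts to test. With TNF, TLR7 rose in WT by 1.97 (adjusted p = 0.032) from very few counts, at 0.228 ± 0.048 CPM against 0.0584 ± 0.019 CPM untreated, and HMGB1 fell by 0.22 in N108 (adjusted p = 0.038). Both calls were lost under most omissions of a single library: for TLR7 without WT TNF replicate 2 or 3 or any WT untreated library, and for HMGB1 without N108 TNF replicate 1 or 2 or N108 untreated replicate 1 or 2. The HMGB1 value was -0.11 (adjusted p = 0.11) with the GC correction. Without N108 TNF replicate 3, 2 of the 19 passed in N108.

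All 18 scaffolds, adaptors and IRF factors listed around TBK1 were tested. In untreated cells 8 fell and 2 rose in N108 against WT (median -0.08), and 10 fell and 2 rose in M3 against WT (median -0.19), beside 42.4% and 52.9% of all genes tested called. With TNF 7 fell and 2 rose in N108, and 10 fell and 2 rose in M3, beside 46.7% and 54.7%. The shares of all genes called lower were 21.6% in N108 and 26.8% in M3 untreated, and 23.6% and 27.8% with TNF. TANK, a scaffold that binds TBK1 and IKKε, rose to 62.6 ± 1.3 CPM in untreated N108 cells and 46.1 ± 0.24 in untreated M3 cells, against 30.9 ± 2.4 in untreated WT cells (1.02, adjusted p = 1.7e-15, and 0.58, adjusted p = 1.9e-10). IRF7, the interferon-inducible relative of IRF3, fell to 5.29 ± 0.26 and 6.71 ± 0.55 CPM in the same groups, against 15.7 ± 0.3 in WT (-1.57, adjusted p = 1.9e-15, and -1.23, adjusted p = 1.8e-13). IRF1 was -0.68 in N108 (adjusted p = 1.8e-09) and -0.89 in M3 (adjusted p = 6e-12). RIPK1, a kinase shared with TNF signalling, was -0.47 in M3 with TNF (adjusted p = 8.9e-10). RIPK1 in N108 with TNF had 43.7 ± 1.6 CPM, also below the 54.1 ± 0.9 CPM of WT. With TNF 2 of the 18 rose in each line, IRF1 and TICAM1, though without N108 TNF replicate 3 a total of 5 passed in N108. IRF1 rose to 129.6 ± 15 CPM in N108 cells with TNF (20.8 ± 1.3 untreated), 152.2 ± 2.2 in M3 (18 ± 0.99 untreated) and 229.9 ± 7.6 in WT (33.4 ± 0.53 untreated). TICAM1, the adaptor TRIF that TLR3 signals through, rose by 0.90 in N108 (adjusted p = 1.3e-11), 0.86 in M3 (adjusted p = 2.7e-11) and 0.90 in WT (adjusted p = 8.1e-12).

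Of 15 nucleases and other brakes on self nucleic acid, 14 were tested, TREX1 having 0 counts in every library. Exon overlap with other genes was not examined for TREX1, so its 0 counts do not show that it was not expressed. In untreated cells 6 fell and 3 rose in N108 against WT, and 7 fell and 2 rose in M3 against WT, beside 42.4% and 52.9% of all genes tested called. With TNF 4 fell and 3 rose in N108, and 5 fell and 2 rose in M3, near the 46.7% and 54.7% called over all genes. Called lower were 21.6% of all genes in N108 and 26.8% in M3 untreated, and 23.6% and 27.8% with TNF. SAMHD1, which degrades deoxynucleotides, was -0.31 in untreated N108 (adjusted p = 3.7e-06) and -0.47 in untreated M3 (adjusted p = 2.4e-09). ADAR, which edits double-stranded RNA, was -0.28 (adjusted p = 5.3e-06) and -0.22 (adjusted p = 0.00011). The RNA exosome helicase SKIC2 was -0.34 in untreated N108 (adjusted p = 1.1e-05), and it had 48.6 ± 1.4 CPM in untreated M3 against 56.8 ± 0.87 in WT. The lysosomal nuclease DNASE2 was -0.36 in M3 with TNF (adjusted p = 5.8e-07), and it had 35.5 ± 1.1 CPM in N108 with TNF against 42.4 ± 0.92 in WT. The lysosomal RNase RNASET2 was 0.32 in untreated M3 (adjusted p = 0.0002), and it had 21.3 ± 0.68 CPM in untreated N108 against 17.3 ± 0.27 in WT. With TNF SKIC2 fell by 0.33 in WT (adjusted p = 0.0002), as did RNASEH2A by 0.65 (adjusted p = 0.025), whose call was lost without WT TNF replicate 1 or 3 or any WT untreated library. In the mutants 0 of the 14 passed with TNF in edgeR or DESeq2, with 2 unadjusted p under 0.05 in N108 and 3 in M3.

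Ubiquitin ligases and deubiquitinases that act on the sensors went both ways. Of 18 listed 17 were tested. In untreated cells 6 fell and 4 rose in N108 against WT, and 8 fell and 5 rose in M3 against WT, beside 42.4% and 52.9% of all genes tested called. With TNF 7 fell and 4 rose in each mutant, beside 46.7% and 54.7%. Of all genes, 21.6% in N108 and 26.8% in M3 were called lower untreated, and 23.6% and 27.8% with TNF. Without WT TNF replicate 1 the calls in N108 with TNF numbered 7 in all. TNFAIP3 (A20), an NF-κB target that restrains the pathway, had 9.51 ± 0.45 CPM in untreated N108 cells and 7.58 ± 0.56 in untreated M3 cells, against 24.8 ± 0.19 in untreated WT cells (-1.38, adjusted p = 5.3e-16, and -1.71, adjusted p = 5.6e-18). CYLD, a deubiquitinase, was 0.68 (adjusted p = 4.6e-09) and 0.45 (adjusted p = 3.7e-06), and USP18, which removes ISG15, was -0.56 (adjusted p = 1.4e-06) and -0.62 (adjusted p = 2.1e-07). RNF5, a ligase for STING, was 0.60 in untreated M3 (adjusted p = 8.4e-10), and RNF135, a ligase for RIG-I, was 0.55 in N108 with TNF (adjusted p = 2.1e-06). With TNF 1 of 17 rose in each line: TNFAIP3, by 4.04 in N108 (adjusted p = 3.5e-26), 4.80 in M3 (adjusted p = 1.2e-27) and 3.36 in WT (adjusted p = 5e-25). Its level with TNF stayed highest in WT, at 254.6 ± 10 CPM, against 156.8 ± 15 in N108 and 211.1 ± 6.7 in M3.

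The genes whose levels ran most closely with a sensor over the 18 libraries were found for the 3 tested members with the widest range of group means. For TLR3 these were SLC12A2 (Pearson r 0.983), CUL4B (0.981) and RASSF8 (0.98). For IFIH1 they were HSPH1 (0.983) and SLC22A23 (0.981), and for DHX58 they were APOL2 (0.944), KRT15 (0.94) and VTCN1 (0.94). Among the members TLR3 ran closest with STING1 (0.92), DHX58 with STING1 (0.9) and IFIH1 with MAVS (0.89). The 18 points fall into 3 lines of 6 libraries, so such coefficients describe the shared difference between lines.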

How the data were processed

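RNA of 18 HCT116 libraries was sequenced from both ends in reads of 50 bases, per the labels' protocols. The authors deposited raw counts per gene with Ensembl identifiers, for which the submitters' processing notes name STAR 2.7.8, Trim Galore 0.6.6, DESeq2 1.38.3, featureCounts (Subread 2.0.1) and hg38. The sources used here give neither the annotation release nor the strand setting. A second, normalized table was not used, since counts allow a count test. Groups and replicate numbers came from the sample titles.

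The test was that of edgeR 4.0.16 (R 4.3.3). filterByExpr (minimum count 10) kept 19038 genes with 99.97% of the counts. TMM factors scaled the libraries, and 1 robust quasi-likelihood model with a mean per group was fitted over all 18 libraries (12 residual degrees of freedom). From it came 12 comparisons, two-sided, adjusted by Benjamini-Hochberg over all genes tested. The threshold was 0.05. Standard errors and 95% intervals come from the same test, and CPM use TMM-scaled totals. Limits for low counts used 3 counts and, like all such limits, cover counting error only. Merged exon lengths and positions are from GENCODE 29, and promoter windows from RefSeq. The script was tested on simulated data.

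The members and the 5 gene lists (88 genes) were chosen with earlier results of these data known. From each list the up to 3 genes with the smallest p past the threshold in a mutant-against-WT or TNF comparison were named, each with the value of at least 1 such comparison. Some genes that these rules select are not reported here. IFIT2, BCL2L12 and list genes with too few counts were named after their values were seen. Alternatives were DESeq2 1.42.0, RLE size factors, other low-count filters, fits on the groups compared, a replicate block, a GC correction and omission of each library, plus the omission of 3 libraries with a GC trend, chosen after seeing the data.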

Additional observations from a re-analysis of the deposited data

Results flagged for a closer look

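A change with TNF differed between lines by an interaction term for 1 of the sensing genes and 3 of the list genes named above. TBK1 differed by -0.29 between N108 and WT (adjusted p = 0.0493), with changes of -0.16 in N108 and 0.13 in WT that did not pass alone. Its call was lost in 10 of 12 omissions of a single library, and a GC correction gave -0.14. N108 TNF replicates 2 and 3, which carry opposite GC trends (Spearman 0.45 and -0.52), were its lowest and highest N108 libraries with TNF, at 42.1 and 51.9 CPM. With both of them and M3 untreated replicate 3 left out, which leaves 1 N108 TNF library, the interaction was -0.30.

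On the log2 scale TNFAIP3 rose more with TNF in N108 than in WT, by 0.68 (adjusted p = 0.00026), and in M3 than in WT, by 1.44 (adjusted p = 3e-11). It rose less in N108 than in M3, at -0.76 (adjusted p = 0.00012). Its level was higher in WT than in either mutant at both treatments. With TNF it was 156.8 ± 15 CPM in N108, 211.1 ± 6.7 in M3 and 254.6 ± 10 in WT. Untreated it was 9.51 ± 0.45, 7.58 ± 0.56 and 24.8 ± 0.19 CPM. SKIC2 differed by 0.40 between N108 and WT (adjusted p = 0.0056), its level with TNF being 47.3 ± 4.5 CPM in N108 and 45.1 ± 1.5 CPM in WT. Untreated, SKIC2 had 45.0 ± 1.7 CPM in N108 and 56.8 ± 0.87 CPM in WT. In M3 it had 48.4 ± 0.075 CPM with TNF and 48.6 ± 1.4 CPM untreated. Its change with TNF was 0.07 in N108 (adjusted p = 0.54), 0.00 in M3 (adjusted p = 0.99) and -0.33 in WT (adjusted p = 0.0002). IRF1 differed by -0.44 between N108 and M3 (adjusted p = 0.0474), a call lost in 8 of 12 omissions of a single library, with the replicate block (adjusted p = 0.12), in fits on the groups compared (0.19) and under a filter of 1 CPM (0.077).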

How the results depend on the processing

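Of 108 values (9 genes in 12 comparisons), 33 passed the threshold. Under the alternatives 6 of these lost their call under at least 1 setting and 0 reversed, and each loss caused by a single library is given with the gene above. The counts of genes called in the 4 comparisons with WT and the 2 between mutants stayed within 1.5 times of those reported, between 6 and 6, 6 and 7, 6 and 7 and 5 and 6 without single libraries for untreated N108, untreated M3, N108 with TNF and M3 with TNF against WT, and between 3 and 4 and between 2 and 3 for N108 against M3 untreated and with TNF. With TNF the count in N108 was 0 to 1 without single libraries, in M3 it was 0 with the GC-trend libraries left out and 0 to 1 without single libraries, and in WT it was 1 in fits on the groups compared and 1 with the GC-trend libraries left out (0 to 0 without single libraries). The count for the interaction of N108 with TNF against WT was 0 under a filter of 1 CPM and in fits on the groups compared. It was also 0 with the replicate block, with the GC correction and with both, and 0 to 2 without single libraries. Leaving out the GC-trend libraries leaves 1 N108 TNF library, so no count is given for that setting. For the interaction between N108 and M3 it was 0 to 1 without single libraries.

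Reversed values concerned genes not called under either setting. With the GC correction, alone or with the block, STING1 was 0.02 with TNF in WT, -0.02 with TNF in N108 and -0.04 for the N108 interaction, MAVS was -0.02 for the N108 interaction, IKBKE was -0.07 for N108 against M3 with TNF, -0.11 for the N108 interaction and -0.04 for the interaction between mutants, and TLR3 was 0.08 or 0.09 for N108 against M3 with TNF. Without single libraries TLR3 was -0.04 (without WT TNF replicate 2) to 0.14 with TNF in WT and 0.00 (without M3 untreated replicate 3) to 0.19 for untreated N108 against M3, and RIGI was -0.18 (without WT TNF replicate 3) to 0.16 for M3 against WT with TNF. With the GC-trend libraries left out, TLR3 was 0.00 for untreated N108 against M3 and 0.04 for the interaction between mutants, and RIGI was -0.18 with TNF in N108. The cause was not tested.

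Of 35 list counts, 24 stayed within 1.5 times under every setting. Among other sensors with TNF in WT, 0 passed with DESeq2 (which gave TLR7 no adjusted p) and under a filter of 1 CPM, 2 with the GC-trend libraries left out, and 0 to 1 without single libraries. With TNF in N108 2 passed with no filter and 0 in fits on the groups compared, with the block, with the GC correction and with both (0 to 2 without single libraries), in M3 1 passed with the GC correction, and for untreated N108 against WT 11 passed in fits on the groups compared. Among scaffolds with TNF in WT 4 passed with the GC-trend libraries left out, and in N108 2 to 5 without single libraries. Nucleases with TNF in WT gave 1 to 2 without single libraries. Ubiquitin genes with TNF in WT gave 2 with no filter and 2 with the GC-trend libraries left out, and for N108 against WT with TNF 7 in fits on the groups compared and 7 to 12 without single libraries. Interferon and IRF3 targets with TNF gave 1 in WT with the GC-trend libraries left out and 0 to 1 in N108 without single libraries.

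Over all genes the calls for the interaction of N108 with TNF numbered 498, against 1140 with DESeq2 and 148 with the GC correction. For M3 they numbered 60, against 156 and 216, and between mutants 15, against 47 and 23. TNF in N108 called 228 genes, against 347 with DESeq2. Same-numbered replicates correlated between -0.147 and 0.103 in their deviations (1 of 45 pairs over 0.1), so the numbers were not taken as pairs. The replicate block removed the call of the TBK1 interaction (adjusted p = 0.076) and that of MAVS in N108 against M3 with TNF (adjusted p = 0.058), and changed no other call of the 9 genes. Among the list genes named it also removed the calls of the IRF1 interaction between mutants (adjusted p = 0.12) and of HMGB1 with TNF in N108 (adjusted p = 0.064). CGAS, DHX58 and RIGI are limited by depth, with 20 counts in all for CGAS and as few as 32 in a library for DHX58.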

Other observations

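The nearest tested protein-coding genes on both sides of STING1 were compared between lines as well. In untreated N108 against WT, SPATA24 was 0.40 (adjusted p = 0.014), DNAJC18 0.00 (adjusted p = 0.99), UBE2D2 0.01 (adjusted p = 0.86) and CXXC5 0.67 (adjusted p = 3.1e-10), beside -0.83 for STING1. In untreated M3 against WT the same genes were 0.57 (adjusted p = 0.00054), 0.51 (adjusted p = 5.7e-07), -0.05 (adjusted p = 0.41) and 0.65 (adjusted p = 2.7e-10), beside -0.70 for STING1. Around IFIH1, TBR1 was -0.55 in N108 (adjusted p = 0.2) and -1.48 in M3 (adjusted p = 0.0024), DPP4 was 1.72 in N108 (adjusted p = 5e-20) and -0.14 in M3 (adjusted p = 0.028), GCA was 0.26 in N108 (adjusted p = 0.0027) and 0.31 in M3 (adjusted p = 0.00041), and GRB14 was 0.75 in N108 (adjusted p = 0.00026) and 2.54 in M3 (adjusted p = 5e-15). Around TLR3, CCDC110 was 0.60 in N108 (adjusted p = 0.0038) and 0.56 in M3 (adjusted p = 0.0054), PDLIM3 was 0.32 in N108 (adjusted p = 0.00043) and 0.03 in M3 (adjusted p = 0.72), FAM149A was 0.11 in N108 (adjusted p = 0.22) and 0.03 in M3 (adjusted p = 0.71), and CYP4V2 was 0.40 in N108 (adjusted p = 7.3e-05) and 0.50 in M3 (adjusted p = 2.5e-06). Around DHX58, C17orf113, ZNF385C, KAT2A and RAB5C were 0.13, -0.43, -0.12 (adjusted p = 0.031) and -0.02 in N108. In M3 they were 0.14, -0.77 (adjusted p = 0.0016), 0.02 and -0.26 (adjusted p = 0.02). Some neighbours were distant. Between midpoints, TBR1 lay 871909 and GRB14 2264439 bases from IFIH1, and CCDC110 620140 and PDLIM3 560474 bases from TLR3. The neighbours were chosen by distance after the values of the sensing genes were known.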
